A study of Homo sapiens with 12 samples.

Results

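Lipid peroxidation and ferroptosis control genes were followed in cisplatin-resistant lung cancer cells given gambogenic acid with or without NRF2 knockdown. The 9 genes were ACSL4, ACSL3, LPCAT3, POR, GPX4, AIFM2, GCH1, DHODH and VKORC1L1, chosen by symbol, and all 9 were among the 61510 genes listed. All 9 passed the filter on low counts, which left 15653 genes. The cells were A549/DDP, made resistant to cisplatin from A549, an established line of human lung adenocarcinoma, and all groups were grown with 1 µg/ml cisplatin (DDP). They expressed a non-targeting hairpin (shNC) or a hairpin (shNRF2) against NRF2, the transcription factor encoded by NFE2L2 that drives antioxidant genes. At 70% confluence both lines received DMSO or 4 µM GNA (gambogenic acid, a caged xanthone of gamboge resin) for 24 h. This gave 4 groups, written as hairpin and then treatment (shNC DMSO and so on), with 3 libraries in each. The sources used here do not give how many hairpins or clones each line holds. Nothing in the labels ties a library to its own culture, so the p-values weigh differences only against library-to-library spread, which may be technical.

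Ferroptosis is an iron-dependent cell death in which polyunsaturated fatty acids held in membrane phospholipids are oxidised until the membrane fails. ACSL4 and LPCAT3 load such fatty acids into phospholipids, ACSL3 activates fatty acids including the monounsaturated ones that resist oxidation, and POR passes electrons from NADPH that can start the oxidation. GPX4 reduces lipid hydroperoxides with glutathione. AIFM2 (the protein FSP1), DHODH, GCH1 and VKORC1L1 act beside GPX4 by regenerating or making small radical-trapping antioxidants, namely reduced coenzyme Q, tetrahydrobiopterin and reduced vitamin K.

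Library totals ran from 12848607 to 17192671 counts. NFE2L2, the targeted gene, read 74.4 to 90.2 CPM over the 6 shNC libraries and 43.6 to 53.3 CPM over the 6 shNRF2 libraries, with no overlap. CPM are counts scaled to a common library size after TMM, which corrects totals for composition. Of 5 epithelial markers, KRT8 (7430 to 13319 CPM) and KRT18 (1908 to 3281 CPM) were abundant, CDH1 ran from 31.1 to 71.2 CPM, EPCAM stayed between 1.99 and 3.60 CPM, and KRT19 had at most 2 counts in any library, which does not show that it was silent since the counting method is not given in the sources used here. Their summed level moved with GNA, being 15649 to 16546 CPM in the shNC line under DMSO and 9743 to 10024 under GNA. In the shNRF2 line it was 15289 to 15890 CPM under DMSO and 9458 to 9933 under GNA. KRT8 and KRT18 make up nearly all of this sum. CDH1 went the other way in shNC, from 31.1 to 36.0 CPM under DMSO to 42.5 to 47.7 under GNA, and EPCAM was 2.58 to 3.31 and 3.25 to 3.60 CPM. In shNRF2 CDH1 read 57.5 to 70.4 CPM under DMSO and 63.3 to 71.2 under GNA, with overlap. All shNRF2 libraries were thus above all shNC libraries for CDH1. EPCAM in shNRF2 was 1.99 to 2.76 CPM under DMSO and 2.65 to 3.24 under GNA. The part of these markers in the results below was not tested. Summed fibroblast markers (COL1A1, COL3A1 and PDGFRB) stayed between 5.15 and 8.11 CPM, nearly all of it COL1A1, and summed endothelial and leukocyte markers reached at most 0.660 and 0.675 CPM. In bulk RNA, fewer cells of a type and less RNA per cell cannot be told apart.

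Per unit of length GPX4 was by far the most abundant of the 9 genes, at 119.6 ± 9.92 FPKM (SD, n = 3, as for the levels below; deposited counts scaled to library total and gene length) in shNC DMSO. POR followed at 15.6 ± 0.711 FPKM and AIFM2 at 14.8 ± 0.538, and the libraries of this pair overlapped. ACSL4 (6.26 ± 0.182 FPKM), ACSL3 (5.58 ± 0.422) and VKORC1L1 (5.10 ± 0.293) formed the middle of the order, where ACSL3 and VKORC1L1 overlapped. GCH1 (2.00 ± 0.013 FPKM) and DHODH (1.48 ± 0.255) were low, and LPCAT3 was lowest at 0.651 ± 0.064. GPX4, POR and AIFM2 led in this order and LPCAT3 came last in each of the 4 groups. Places in the middle changed. ACSL3 passed ACSL4 in shNC GNA and in both shNRF2 groups, and DHODH stood above GCH1 in both shNRF2 groups, with overlapping libraries. These levels rest on the gene lengths behind the deposited FPKM. The values imply 14436 bases for ACSL3, against 7240 exon bases in GENCODE 29, and with the latter length ACSL3 would stand at 11.1 FPKM in shNC DMSO, above ACSL4 at 9.73. In shNRF2 DMSO it would stand at 14.8, above AIFM2 at 12.8.

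**Figure D1:**
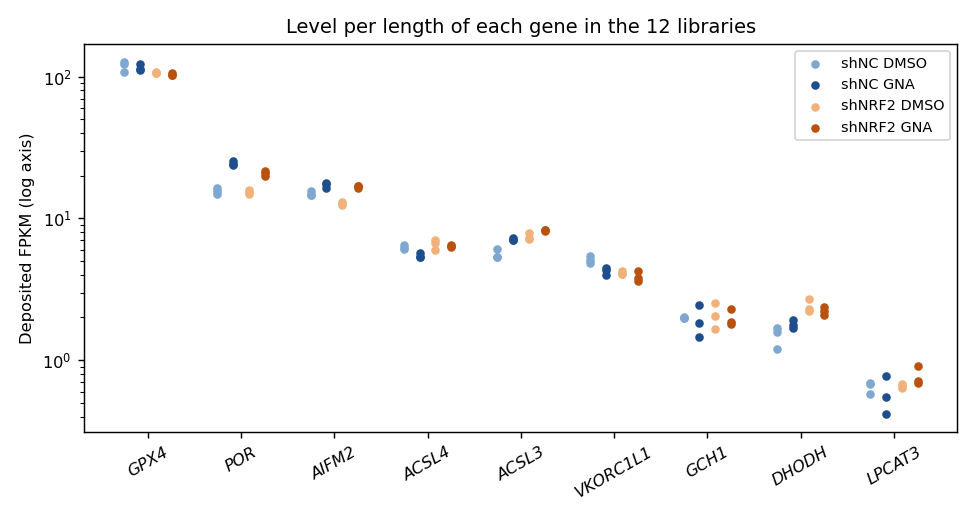
Deposited FPKM of the 9 genes (log axis) in each of the 12 libraries, ordered by their mean in shNC DMSO and coloured by group. GPX4 stands near 119.6 FPKM in shNC DMSO, POR and AIFM2 near 15, and LPCAT3 below 1 in every library.

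The first comparison asked how GNA moved these genes in control hairpin cells, with NRF2 left in place. POR and ACSL3 rose, ACSL4 and VKORC1L1 fell, and GPX4 fell by a margin that did not hold in all fits. AIFM2, DHODH, GCH1 and LPCAT3 did not pass the test. That made 5 of 9 genes called (55.6%), 2 higher and 3 lower, where 30.7% of all 15653 genes tested were called, 14.6% higher and 16.1% lower. The median log2 fold change of the 9 genes was -0.15, against 0.017 over all genes. With library totals in place of TMM scaling, a setting that moved the median of all genes by 0.10, 3 of the 9 were higher and 2 lower. The same setting turned the split over all genes from 2284 higher and 2526 lower into 3543 and 1542.

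POR, NADPH-cytochrome P450 reductase, lies on chromosome 7 at 75899200 to 75986855 (GRCh38, GENCODE 29, plus strand). It read 102, 97.4 and 107 CPM in shNC DMSO and 145, 148 and 154 CPM in shNC GNA. Every GNA library was above every DMSO library, as was the case in either direction for 40.7% of all genes tested. The rise was 1.46-fold, a log2 fold change of 0.55 ± 0.053 (SE, edgeR adjusted p = 7.4e-09).

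ACSL4, the acyl-CoA synthetase that favours arachidonic acid (chromosome X, 109624244 to 109733403, minus strand), went from 63.5, 68.0 and 65.1 CPM in shNC DMSO to 55.6, 52.4 and 51.9 CPM in shNC GNA. ACSL3, its relative on chromosome 2 (222860934 to 222944639, plus strand), went the other way, from 91.3, 81.3 and 81.2 to between 98.8 and 102 CPM. The libraries of GNA and DMSO did not overlap for either gene. ACSL4 fell by 0.30 ± 0.064 on the log2 scale (edgeR adjusted p = 0.00071), and ACSL3 rose by 0.25 ± 0.057 (edgeR adjusted p = 0.0014).

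VKORC1L1, a vitamin K epoxide reductase (chromosome 7, 65873166 to 65959563, plus strand), read 30.6, 32.6 and 34.7 CPM in shNC DMSO and 26.6, 23.8 and 25.5 CPM in shNC GNA. These groups did not overlap, and the gene fell to 77.5% of its DMSO level (log2 fold change -0.37 ± 0.082, edgeR adjusted p = 0.0010).

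GPX4, on chromosome 19 at 1103926 to 1106791 (plus strand), read 208, 238 and 247 CPM in shNC DMSO and 220, 200 and 204 CPM in shNC GNA. The groups overlapped, because the first DMSO library lay below the first GNA library. The fall of 0.15 ± 0.056 on the log2 scale passed narrowly (edgeR adjusted p = 0.039). It did not pass in 13 of 22 alternative fits, among them library totals (log2 fold change -0.049, edgeR adjusted p = 0.52) and the replicate number as a block (adjusted p = 0.054). Without shNC DMSO replicate 1, the library that stood apart within its group, the log2 fold change was -0.22 (edgeR adjusted p = 0.0014). Without shNC DMSO replicate 3 it was -0.10 (edgeR adjusted p = 0.23). The call was also lost when shNC DMSO replicate 2 was left out (edgeR adjusted p = 0.14), and when replicate 2 or 3 of shNC GNA was (0.17 and 0.11). It was lost as well without shNRF2 GNA replicate 1 or 3 (edgeR adjusted p = 0.0502 and 0.051).

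AIFM2, which encodes the coenzyme Q and vitamin K reductase FSP1 (chromosome 10, 70098223 to 70132934, minus strand), read 77.8, 78.7 and 83.8 CPM in shNC DMSO and 90.0, 87.3 and 81.7 in shNC GNA. The groups overlapped and the change did not pass the test (log2 fold change 0.11, 95% interval -0.0092 to 0.22, edgeR adjusted p = 0.16). It did pass with library totals (0.21, edgeR adjusted p = 0.0048) and with limma on log2(FPKM + 1) (0.20, adjusted p = 0.0049).

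DHODH, the mitochondrial pyrimidine synthesis enzyme that reduces coenzyme Q (chromosome 16, 72008588 to 72027664, plus strand), had a log2 fold change of 0.18 with a 95% interval from -0.081 to 0.43. GCH1, the first enzyme of tetrahydrobiopterin synthesis (chromosome 14, 54842008 to 54902852, minus strand), had -0.17 (-0.55 to 0.22). LPCAT3, which inserts polyunsaturated fatty acids into phospholipids (chromosome 12, 6976186 to 7018510, minus strand), had -0.29 (-0.76 to 0.18). GCH1 held only 68 to 113 counts per library over the 12 libraries and LPCAT3 31 to 55, so changes well within these intervals were not detectable at this depth. LPCAT3 also shares 65.6% of its exon bases with EMG1 on the opposite strand in GENCODE 29, and whether the counting used strand is not given in the sources used here. None of the other 8 genes shares more than 1.41% of its exon bases with any single other gene.

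**Figure D2:**
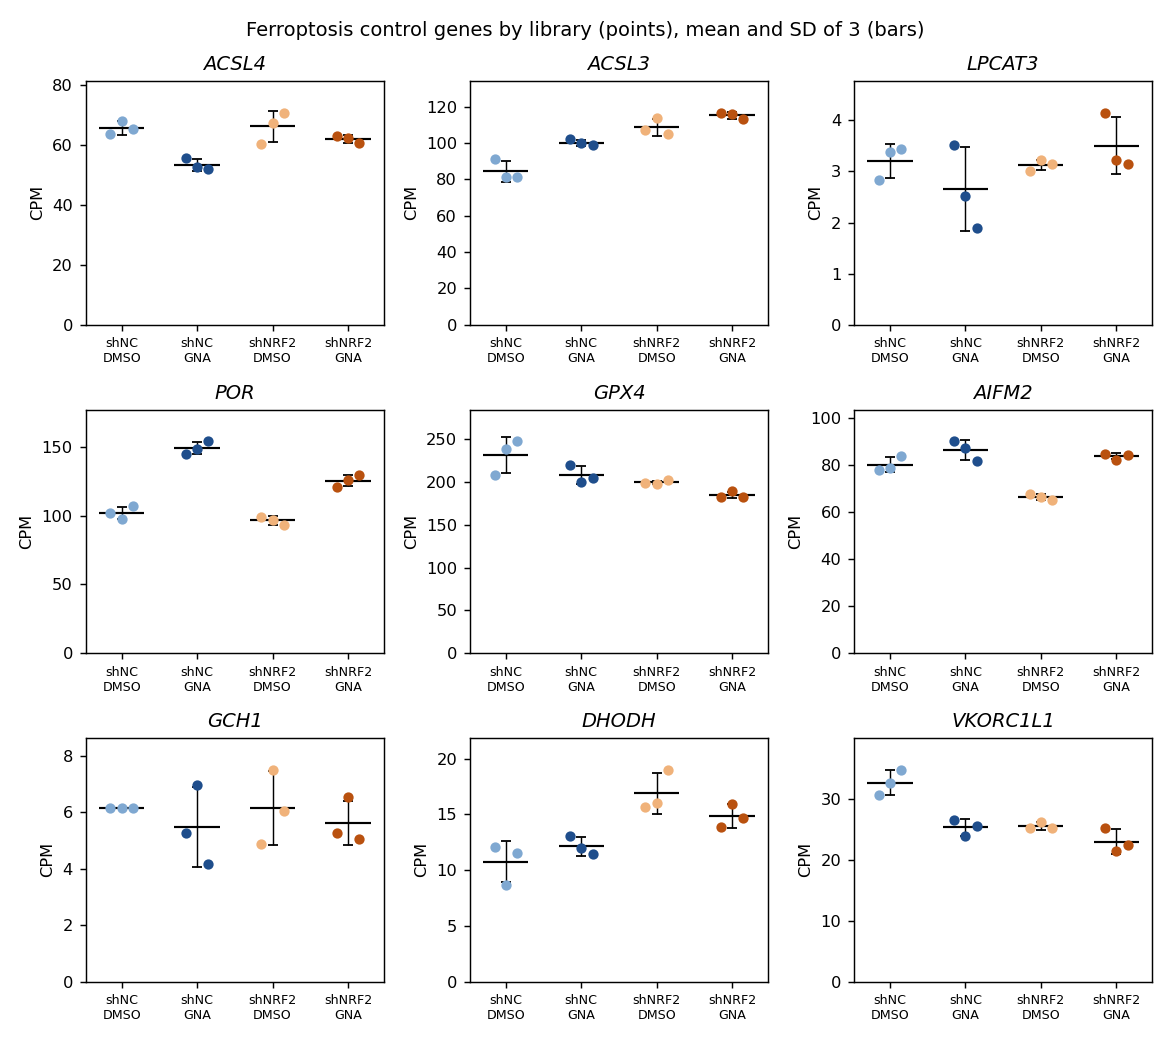
CPM of each of the 9 genes in the 12 libraries (points) by group, with the mean (line) and SD of 3 libraries (error bars), each axis starting at 0. POR was higher with GNA in both lines without overlap, and AIFM2 was lowest in shNRF2 DMSO, at 64.9 to 67.6 CPM.

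In the NRF2 hairpin line POR and AIFM2 rose with GNA and none of the 9 genes fell by the test. The count was 2 of 9 (22.2%), both higher, where 33.7% of all genes tested were called, 16.7% of them higher and 17% lower. With library totals ACSL3 was also called (0.15, edgeR adjusted p = 0.042), making 3 higher. The same setting gave 3356 higher and 2091 lower genes over the whole table, in place of 2617 and 2657. POR read 99.3, 96.8 and 93.3 CPM in shNRF2 DMSO and 121, 126 and 129 CPM in shNRF2 GNA. No library overlapped, and the rise was 1.30-fold (log2 fold change 0.38 ± 0.054, edgeR adjusted p = 2.8e-06).

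AIFM2 read 67.6, 66.3 and 64.9 CPM in shNRF2 DMSO and 84.5, 82.1 and 84.0 CPM in shNRF2 GNA. All GNA libraries lay above all DMSO libraries of this line and within the range of the shNC GNA libraries. The rise was 1.26-fold, 0.33 ± 0.058 on the log2 scale (edgeR adjusted p = 4.3e-05).

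GPX4 read 198, 198 and 202 CPM in shNRF2 DMSO and 182, 189 and 183 CPM in shNRF2 GNA. The libraries did not overlap, yet the change did not pass (log2 fold change -0.11, 95% interval -0.23 to 0.0057, edgeR adjusted p = 0.14). Non-overlap in either direction was found for 44.9% of all genes in this comparison. ACSL4 (-0.093, 95% interval -0.23 to 0.039), ACSL3 (0.085, -0.030 to 0.20) and VKORC1L1 (-0.15, -0.33 to 0.021), the 3 genes that had moved without overlap beside POR in shNC, did not pass here. DHODH (-0.18, -0.42 to 0.062), GCH1 (-0.12, -0.51 to 0.27) and LPCAT3 (0.16, -0.31 to 0.62) did not pass either.

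The lines were next compared without GNA. In DMSO, ACSL3 and DHODH were higher in the shNRF2 line than in the shNC line and GPX4, AIFM2 and VKORC1L1 were lower. These 5 of 9 genes (55.6%) compare with 35.2% of all genes tested, 16.8% higher and 18.3% lower. With library totals the split over all genes was 3226 higher and 2266 lower, in place of 2636 and 2872, with the same 5 genes called. All 5 were free of overlap between the lines, as were 43.2% of all genes. Each of the 5 was called under all 22 alternatives run, GPX4 only narrowly in the weakest of them. The largest adjusted p over these edgeR, DESeq2 and limma fits was 0.049 for GPX4 and 0.012 for VKORC1L1, the next largest. The log2 fold change of GPX4 ran from -0.30 to -0.15 over them. This comparison and the GNA comparisons share the DMSO libraries, so they are not independent of each other.

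DHODH showed the widest shift of the 9 genes here, from 12.1, 8.71 and 11.5 CPM in shNC DMSO to 15.7, 16.0 and 19.0 CPM in shNRF2 DMSO. Its level was 1.57-fold that of shNC (log2 fold change 0.65 ± 0.12, 95% interval 0.40 to 0.90, edgeR adjusted p = 0.00013). ACSL3 read 107, 114 and 105 CPM in shNRF2 DMSO, above all 3 shNC DMSO libraries (log2 fold change 0.36 ± 0.057, edgeR adjusted p = 1.3e-05).

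AIFM2 stood at 82.7% of its shNC level (log2 fold change -0.27 ± 0.058, edgeR adjusted p = 0.00051) and GPX4 at 86.2% (-0.21 ± 0.056, edgeR adjusted p = 0.0036). VKORC1L1, at 25.2, 26.2 and 25.1 CPM in shNRF2 DMSO, stood at 78.1% (-0.36 ± 0.083, edgeR adjusted p = 0.0013). The levels of VKORC1L1 in shNRF2 DMSO thus lay within the range seen in shNC GNA. ACSL4 (0.0096, 95% interval -0.12 to 0.14), POR (-0.078, -0.19 to 0.034), GCH1 (-0.0053, -0.39 to 0.38) and LPCAT3 (-0.042, -0.51 to 0.42) did not pass.

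NRF2 binds antioxidant response elements, whose core reads TGACNNNGC, so promoters were searched for these letters. RefSeq promoter sequences (GRCh38.p14) were matched for 7 of the 9 genes, all but POR and GCH1, in 9 entries because GPX4 has 3. In the 250 bases before the RefSeq start, on both strands, the core occurred in the entries of AIFM2 and VKORC1L1 and in no other of the 9 entries. Over all 35116 entries 10.9% held it. Both genes were lower in shNRF2 DMSO, as was GPX4, which had no match in its 3 entries. Neither was called between the lines under GNA (AIFM2 -0.046, VKORC1L1 -0.14 on the log2 scale). Whether the matches bear on these levels was not tested. The matching stretches are shown 5′ to 3′ along the gene's strand with the match in capitals, which reads as the reverse complement of the core in both.
AIFM2: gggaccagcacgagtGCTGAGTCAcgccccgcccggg
VKORC1L1: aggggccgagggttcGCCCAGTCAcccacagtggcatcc
The AIFM2 stretch is chr10:70132826-70132862 (minus strand), and its match begins 22 bases before the RefSeq start. GENCODE 29 places the outermost start of AIFM2 109 bases further upstream, so by that annotation the match lies inside the gene, 87 bases after its first base. The VKORC1L1 stretch is chr7:65872849-65872887 (plus strand), with the match beginning 210 bases before the RefSeq start and 302 before that of GENCODE 29. The AIFM2 match also contains the AP-1 letters TGANTCA, and the VKORC1L1 match does not. The heat shock element letters GAANNTTC or TTCNNGAA, searched the same way, occurred in none of the 9 entries and in 11.6% of all. A match of letters is a description and shows no binding.

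The lines were then compared under GNA. With GNA present, ACSL3 and ACSL4 were higher in the shNRF2 line, and POR and GPX4 were lower. These 4 of 9 genes (44.4%) compare with 26.1% of all genes tested, 12.8% higher and 13.3% lower, and 40.9% of all genes showed no overlap. POR, at 149 ± 4.62 CPM in shNC GNA and 125 ± 4.28 in shNRF2 GNA (SD, n = 3), stood at 84.2% in shNRF2 (log2 fold change -0.25 ± 0.053, edgeR adjusted p = 0.00072). ACSL3 read 117, 116 and 113 CPM in shNRF2 GNA, above all shNC GNA libraries (0.20 ± 0.056, edgeR adjusted p = 0.0080). ACSL4, at 63.0, 62.2 and 60.5 CPM, was also above all of them (0.22 ± 0.065, edgeR adjusted p = 0.014). GPX4 stood at 88.7% (-0.17 ± 0.056, edgeR adjusted p = 0.023).

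Some of these calls lay near the threshold. Without shNRF2 GNA replicate 1, 2 of the 9 genes were called in place of 4, with ACSL4 at an edgeR adjusted p = 0.052 and GPX4 at 0.082. Over all 22 alternatives the log2 fold change itself ran from 0.20 to 0.25 for ACSL4 and from -0.20 to -0.13 for GPX4. The ACSL4 call was also lost without shNC GNA replicate 2 or 3 (edgeR adjusted p = 0.053 and 0.057). The GPX4 call was also lost without shNC GNA replicate 1 (0.12) or shNRF2 GNA replicate 3 (0.082). DHODH stayed higher in every shNRF2 GNA library (13.9, 16.0 and 14.7 CPM) than in every shNC GNA library (13.1, 12.0 and 11.4 CPM) but did not pass (0.29, 95% interval 0.044 to 0.54, edgeR adjusted p = 0.077). AIFM2 (-0.046, 95% interval -0.16 to 0.070), VKORC1L1 (-0.14, -0.32 to 0.032), GCH1 (0.040, -0.35 to 0.43) and LPCAT3 (0.41, -0.061 to 0.87) did not pass.

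**Figure D3:**
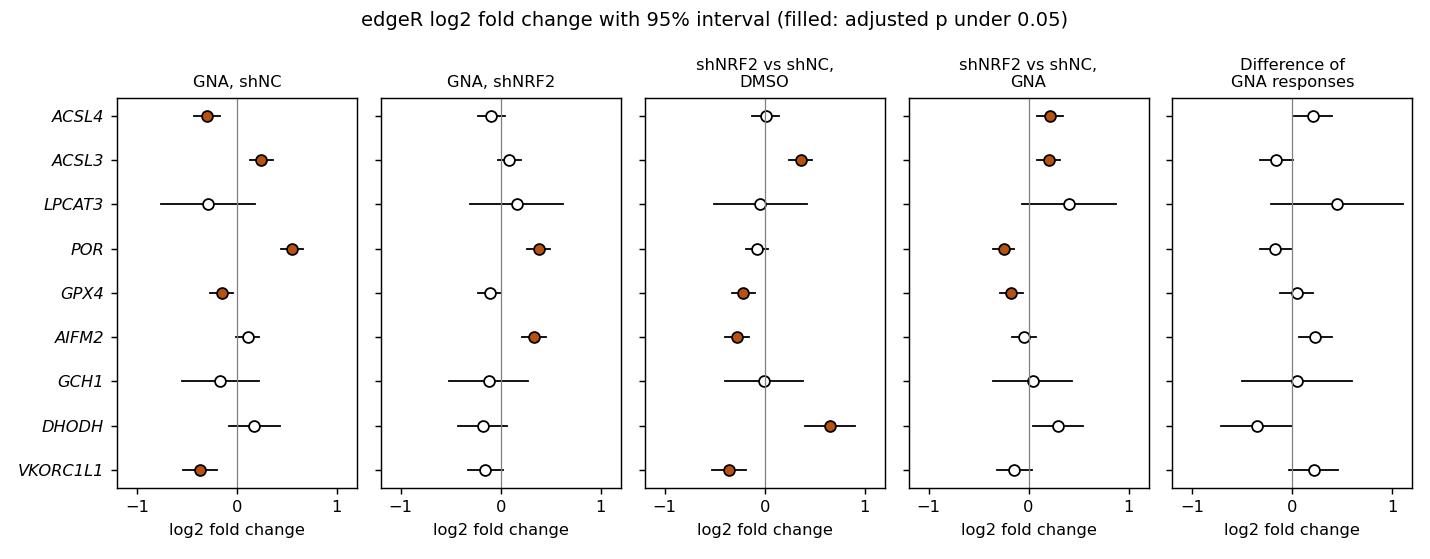
Log2 fold change (x axis) of the 9 genes with its 95% interval in 4 comparisons and in the difference of the GNA responses, shNRF2 minus shNC. Filled points passed an adjusted p of 0.05 in edgeR, and no point is filled in the last panel.

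Whether the GNA response depended on the hairpin was tested directly. The difference of the GNA responses, shNRF2 minus shNC, was called for 0 of the 9 genes with edgeR, with DESeq2 and with limma on FPKM, where edgeR called 6.82% of all genes tested, 3.58% with a more positive response in shNRF2 and 3.24% with a more negative one. Library totals gave 414 and 674 such genes in place of 561 and 507. At an unadjusted p under 0.05 edgeR gave 4 of the 9, and 20% of all genes tested. AIFM2 came nearest, with a response larger by 0.23 ± 0.081 on the log2 scale in shNRF2 (95% interval 0.061 to 0.39, edgeR adjusted p = 0.093). ACSL4 differed by 0.21 (0.019 to 0.39, adjusted p = 0.20), POR by -0.17 (-0.33 to -0.015, adjusted p = 0.20) and DHODH by -0.36 (-0.71 to -0.0036, adjusted p = 0.24). The intervals of ACSL3 (-0.32 to 0.0035), VKORC1L1 (-0.030 to 0.46), GPX4 (-0.12 to 0.21), GCH1 (-0.51 to 0.60) and LPCAT3 (-0.21 to 1.11) included 0. A gene called in one line and not in the other, such as AIFM2, ACSL3, ACSL4 or VKORC1L1, was therefore not shown to respond differently between the lines.

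Ratios within a library do not depend on how libraries are scaled, but their size rests on the gene lengths behind the deposited FPKM. With GENCODE 29 exon lengths the mean of ACSL3 stood above that of ACSL4 in each of the 4 groups. Whether the ratio of these 2 genes lies above or below 1 therefore depends on the lengths used. The FPKM ratio of GPX4 to AIFM2 ran from 7.46 to 8.45 with DMSO and 6.40 to 6.99 with GNA in the shNC line. In the shNRF2 line it ran from 8.19 to 8.68 with DMSO and 6.01 to 6.43 with GNA. In both lines every GNA library thus had a lower ratio than every DMSO library. The exact two-sided permutation test gave p = 0.1 in each line, the smallest that 3 libraries against 3 allow, and 0.16 after adjustment over the 8 ratio comparisons. The ratio of ACSL3 to ACSL4 was 0.827 to 0.993 with DMSO and 1.27 to 1.32 with GNA in the shNC line, and 1.03 to 1.22 and 1.28 to 1.29 in the shNRF2 line. Here too GNA and DMSO libraries did not overlap in either line, with the same exact p = 0.1 in each. Between the lines this ratio did not overlap in DMSO either (exact p = 0.1), whereas it did overlap under GNA. How many other gene pairs separate in this way was not examined.

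**Figure D4:**
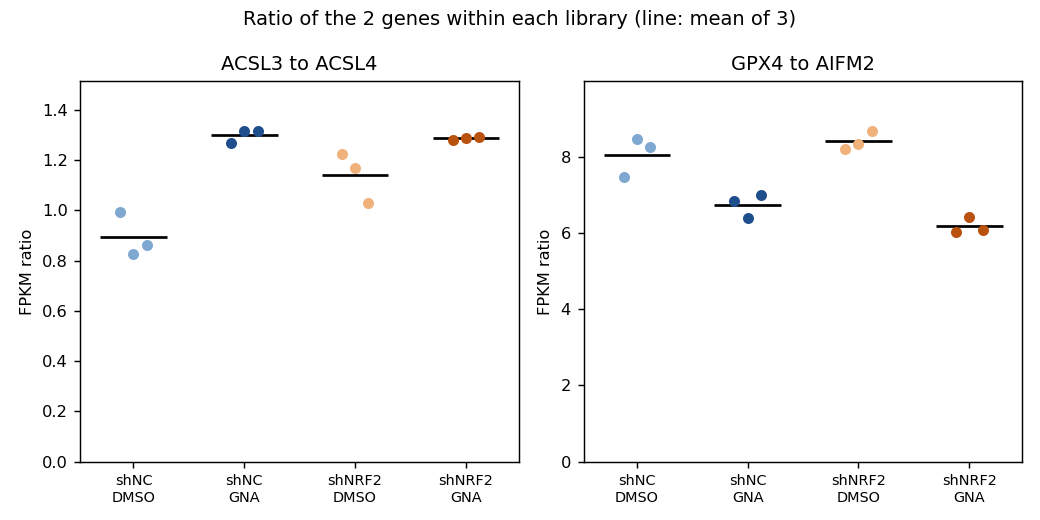
FPKM ratio of ACSL3 to ACSL4 and of GPX4 to AIFM2 within each of the 12 libraries (points) with the group mean (line), each axis starting at 0. The GPX4 to AIFM2 ratio lies below 7 in all GNA libraries and above 7.4 in all DMSO libraries.

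The genes whose profile over the 12 libraries was most like each member were found by Pearson correlation of log2(CPM + 0.5) among 9996 genes with a mean of at least 5 CPM. All pairs share the 12 libraries and their 4 groups, so these values describe likeness only. POR was closest to MUC5AC (r = 0.98) and SLC35C2 (0.98), and ACSL3 to NEAT1 (0.98) and DMAP1 (0.98). GPX4 was closest to GABARAPL2 (0.98) and COX7C (0.96), AIFM2 to BUD23 (0.97) and LRRFIP2 (0.97), and VKORC1L1 to DKC1 (0.96) and OAZ1 (0.96). ACSL4 was closest to SEC23A (0.96) and KIF5B (0.92) and DHODH to PLD1 (0.93) and DNAJB5 (0.93). The low-count genes had weaker neighbours, LPCAT3 with LIN7C (0.78) and ZKSCAN5 (0.77), and GCH1 with FBXL14 (0.83) and USF1 (0.81).

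The wider pathway was described with 11 lists holding 88 other genes, of which 77 were tested. With GNA 16 rose and 19 fell in shNC (median log2 fold change -0.056), and 17 rose and 18 fell in shNRF2 (median -0.11). With library totals these were 21 and 12 in shNC, and 18 and 14 in shNRF2. In shNRF2 against shNC 14 were higher and 26 lower in DMSO (median -0.14), and 5 higher and 25 lower under GNA (median -0.10). The medians over all genes in these comparisons were 0.017, 0.0098, 0.011 and 0.013. The difference of responses was called for 8 of the 77, or 10.4%, against 6.82% of all genes. Of the 77, 20.8% rose and 24.7% fell in shNC with GNA, against 14.6% and 16.1% of all genes, and 22.1% and 23.4% did in shNRF2, against 16.7% and 17%. Between the lines 18.2% were higher and 33.8% lower in DMSO, against 16.8% and 18.3% of all genes, and 6.49% and 32.5% under GNA, against 12.8% and 13.3%.

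Genes of the lipid oxidation list, which holds enzymes and partner proteins such as PEBP1, were partly at the edge of detection. Of 14 such genes 8 were tested, and 3 rose and 2 fell with GNA in shNC, 3 and 3 in shNRF2. CYB5R1, an oxidoreductase that has been paired with POR in starting lipid peroxidation, went from 6.73 ± 0.809 to 11.1 ± 1.08 CPM in shNC and from 6.09 ± 0.825 to 16.6 ± 1.30 CPM in shNRF2. It rose in both lines, as POR did (log2 fold changes 0.73 ± 0.14 and 1.44 ± 0.14, edgeR adjusted p = 0.00016 and 2.5e-09). The response was larger in shNRF2 by 0.71 ± 0.19 on the log2 scale (edgeR adjusted p = 0.024). That difference was not called without shNC DMSO replicate 2 (0.63, edgeR adjusted p = 0.078), shNC GNA replicate 2 (0.69, 0.060), shNRF2 DMSO replicate 3 (0.61, 0.065) or shNRF2 GNA replicate 1 (0.65, 0.069), nor with limma on log2(FPKM + 0.1) (0.66, adjusted p = 0.066). Lipoxygenase transcripts were scarce, with ALOX15 and ALOX15B at no more than 4 counts in any library. ALOXE3 went from 0.890 ± 0.604 to 1.93 ± 0.315 CPM with GNA in shNC and from 0.341 ± 0.073 to 2.48 ± 0.344 CPM in shNRF2, where DMSO libraries held only 4 to 5 counts. PEBP1, a partner protein of 15-lipoxygenase, fell with GNA by 0.34 in shNC and 0.41 in shNRF2.

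In the list of fatty acid synthesis, activation and remodelling 18 of 19 genes were tested, and 3 rose and 4 fell with GNA in shNC, 4 and 2 in shNRF2. With library totals 5 rose and 3 fell in shNC. FADS3, a member of the fatty acid desaturase family, rose by 0.83 ± 0.099 in shNC (edgeR adjusted p = 2.7e-07) and 0.93 ± 0.10 in shNRF2. ELOVL2, which elongates polyunsaturated fatty acids, fell by 0.75 and 0.78, and LPCAT1, a lysophosphatidylcholine acyltransferase, by 0.50 and 0.43. The phospholipase gene PLA2G6 rose by 1.04 ± 0.23 in shNC from a low level (1.94 ± 0.540 CPM in shNC DMSO). FADS1, the delta-5 desaturase, was lower in shNRF2 DMSO than in shNC DMSO (log2 fold change -0.39 ± 0.049, edgeR adjusted p = 4.3e-07).

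Of the relatives of GPX4 and the peroxiredoxin PRDX6, 5 of 8 were tested, and 4 were lower and 1 higher in shNRF2 DMSO. GPX2, the epithelial glutathione peroxidase, stood at 275 ± 23.9 CPM in shNC DMSO and 94.4 ± 3.84 in shNRF2 DMSO (log2 fold change -1.54 ± 0.059, edgeR adjusted p = 3.6e-17). GPX3, the secreted form, differed by -1.04 ± 0.12. The corresponding value for GPX4 was -0.21. Selenocysteine, the amino acid at the active site of GPX4, needs its own synthesis machinery, of which 3 of 7 genes rose with GNA in each line and 0 fell. Over all genes 14.6% rose in shNC and 16.7% in shNRF2. The number of this list that rose was 2 to 3 over the alternatives in each line. SEPHS2, which makes the selenium donor, rose by 0.30 ± 0.079 in shNC and 0.75 ± 0.082 in shNRF2, a difference of 0.45 ± 0.11 (edgeR adjusted p = 0.014). The rise in shNRF2 began from a lower level. In DMSO SEPHS2 was lower in shNRF2 than in shNC, by -0.55 to -0.35 on the log2 scale over 22 alternatives. Under GNA it was not called between the lines. The difference was not called without shNC DMSO replicate 3 (0.36, edgeR adjusted p = 0.061) or shNRF2 DMSO replicate 1 (0.35, 0.057), nor with limma on log2(FPKM + 1) or log2(FPKM + 0.1) (0.40 and 0.41, adjusted p = 0.10 in both). SECISBP2, which reads the selenocysteine signal, rose by 0.45 ± 0.064 and 0.33 ± 0.063.

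Further lists surround the substrates of AIFM2, DHODH, GCH1 and VKORC1L1. Of 14 coenzyme Q genes 1 rose and 3 fell with GNA in shNC, and 1 and 2 in shNRF2. With library totals these were 3 and 1 in shNC, and 2 and 2 in shNRF2. COQ4 rose (0.49 ± 0.12 in both lines) and COQ2 fell (-0.52 ± 0.12 and -0.73 ± 0.13). Of 7 other quinone-reducing flavoenzymes and AIF relatives 5 fell and 1 rose with GNA in shNRF2, and 2 fell with library totals. NQO1, a classic NRF2 target, was lower in shNRF2 DMSO (log2 fold change -0.61 ± 0.048). AIFM1, the mitochondrial relative of AIFM2, fell with GNA by 0.30 in shNC and 0.31 in shNRF2. In the tetrahydrobiopterin list 3 of 7 genes were lower in shNRF2 DMSO, led by SPR (-0.52 ± 0.083) and QDPR (-0.43 ± 0.094). UMPS, which completes the pathway that DHODH serves, fell by 0.37 and 0.46 with GNA, and CAD, which begins it, fell by 0.47 in shNRF2. GGCX, which uses reduced vitamin K, was higher in shNRF2 DMSO (0.38 ± 0.099).

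EBP, an enzyme of late cholesterol synthesis upstream of the radical trap 7-dehydrocholesterol, fell by 0.94 in shNC and 0.68 in shNRF2 with GNA. Its list held 3 genes, of which 0 rose and 1 fell in shNC, and 1 rose and 1 fell in shNRF2. The gene that rose in shNRF2 was SC5D, by 0.25 to 0.50 over 22 alternatives, a call lost in 2 of them. Of 5 transcripts often read in ferroptosis assays 3 rose and 1 fell in shNC with GNA, and 3 rose and 2 fell in shNRF2. CHAC1, a glutathione-degrading enzyme, went from 0.460 ± 0.314 to 4.16 ± 0.468 CPM in shNC and from 2.11 ± 0.335 to 5.74 ± 0.838 CPM in shNRF2. It held only 2 to 11 counts in the shNC DMSO libraries. HMOX1, with more counts, read 36.2 to 43.3 CPM in shNC DMSO and 133 to 151 in shNC GNA. In the shNRF2 line HMOX1 read 13.0 to 16.3 CPM with DMSO and 116 to 126 with GNA. TFRC fell in both lines, a call lost in 8 of 22 alternatives in shNC and 4 in shNRF2. PTGS2 fell in shNRF2, a call lost in 2 of 22.

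**Figure D5:**
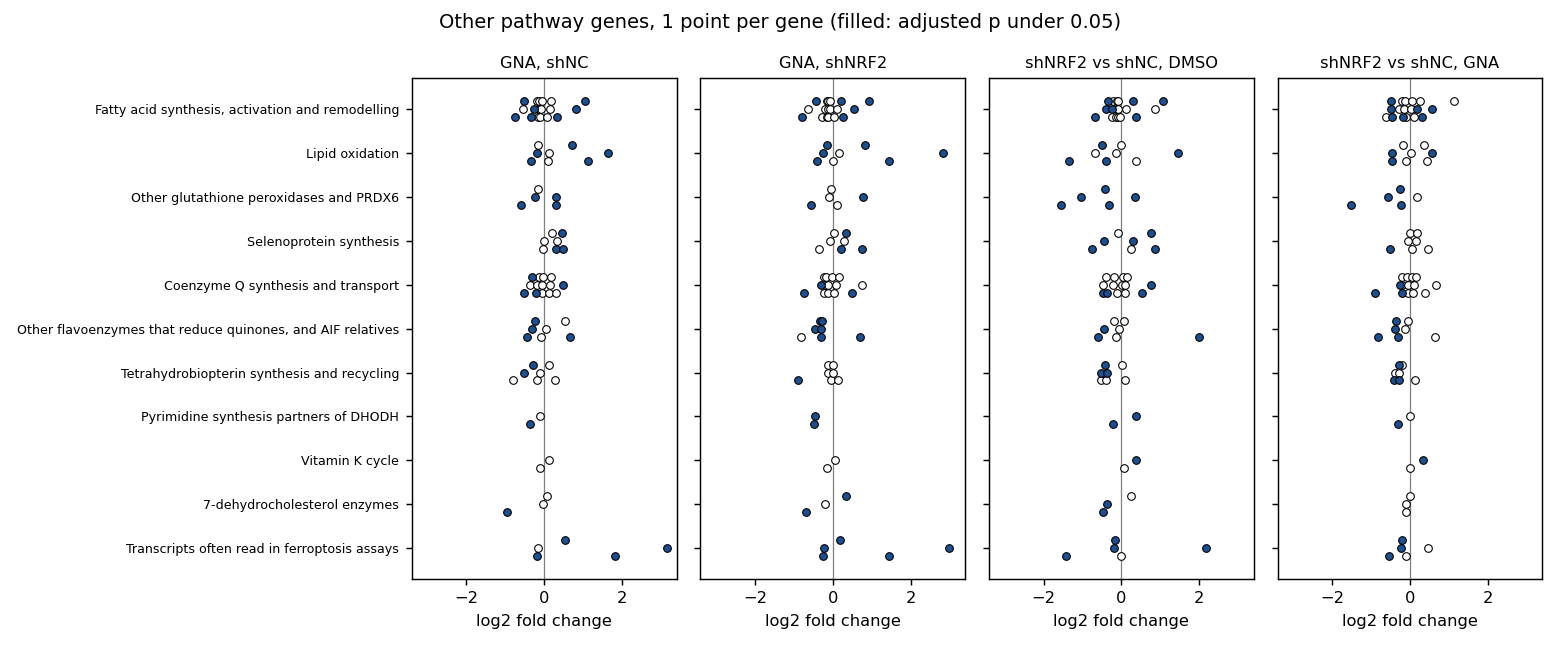
Log2 fold change (x axis) of the tested genes of 11 other pathway lists (rows) in 4 comparisons, 1 point per gene, filled where the edgeR adjusted p was under 0.05. Filled points lie on both sides of 0 for GNA, with 16 higher and 19 lower in shNC, and number 5 higher and 25 lower for shNRF2 against shNC under GNA.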

How the data were processed

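RNA was sequenced from 12 libraries, and the authors deposited raw counts and FPKM values per gene symbol. Per the submitters' processing notes GRCh38 and DESeq2 were used, with no role stated. Aligner, counter and annotation release: not given in the sources used here. For 100% of 8215 well-counted genes, the deposited FPKM matched count over library total and 1 fixed length per gene (relative tolerance 0.001). All columns were mapped by title. Counts were filtered with filterByExpr (minimum count 10, minimum total 15), TMM-scaled and tested with edgeR 4.0.16 (quasi-likelihood, 1 coefficient per group) in R 4.3.3, Benjamini-Hochberg adjusted over 15653 genes and called under 0.05. SE is the log2 fold change over the root of F. Alternatives used DESeq2 1.42.0, limma 3.58.1 on log2(FPKM + 1 or 0.1), other scalings and filters, a replicate block, only the groups compared, and each library left out. Exon-length levels were added after the data were seen. Positions are from GENCODE 29. The fit was tested on simulated data. The 9 genes, lists, ratios and motifs were chosen with earlier results of these data known. All 9 genes are named in every comparison, and from each list at most 2 called genes each way by size of change, of which the text gives a part, chosen after seeing their values.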

Additional observations from a re-analysis of the deposited data

How the results depend on the processing

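Of the 16 calls on the 9 genes, 13 were kept in all 22 alternatives. The others were GPX4 with GNA in shNC, and ACSL4 and GPX4 in shNRF2 against shNC under GNA. The number called over the alternatives without a left-out library was 4 to 5 for GNA in shNC, 2 to 3 for GNA in shNRF2, 5 for the hairpin in DMSO, 3 to 4 for the hairpin under GNA, and 0 for the difference of responses. With a library left out it was 4 to 5, 2, 5, 2 to 5 and 0. Replicate number as a block gave 4, 2, 5, 4 and 0. The numbers did not pair the libraries: residuals correlated above 0.1 in 0 of 18 same-number pairs, and 1 of 12 libraries was closest to its own number. The difference of responses was called for 1068 genes in all, and for 603 and 657 with limma and 700 to 1437 with a library left out. Of 139 called values of 52 other pathway genes, 93 were kept in all alternatives and 0 reversed. Of 29 uncalled values, 8 changed sign under at least 1 alternative and 21 under none. In shNRF2 against shNC in DMSO, GCH1 was at 0.020 with upper-quartile factors, 0.049 with library totals and 0.028 and 0.034 with limma (FPKM + 1 and + 0.1), and LPCAT3 at 0.013 with library totals and 0.0071 and 0.017 with limma. GPX4 was at -0.00084 and -0.00091 with limma for the difference of responses. With a library left out, the range was -0.39 to 0.0011 for GCH1 with GNA in shNC, -0.27 to 0.043 for GCH1 with GNA in shNRF2, -0.17 to 0.14 for GCH1, -0.041 to 0.072 for ACSL4 and -0.13 to 0.0050 for LPCAT3 between lines in DMSO, -0.13 to 0.26 for GCH1 between lines under GNA, and -0.0062 to 0.11 for GPX4 and -0.12 to 0.27 for GCH1 in the difference of responses. The cause was not tested. Depth limits GCH1 and LPCAT3 most, with no more than 113 and 55 counts per library.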

Other observations

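VKORC1, the relative of VKORC1L1 that carries the classic vitamin K cycle, had at most 5 counts in any library and was not tested. In GENCODE 29 it shares 34.7% of its exon bases with AC135050.2 on the same strand and 58.1% with AC135050.7 on the opposite strand. How the deposited counting treated reads in shared exons is not given in the sources used here, so these counts do not show that the gene was silent. KRT19 had at most 2 counts. For it and for the genes that follow exon overlap was not examined. Since the counting method is not given in the sources used here, their counts do not show silence either. GPX7, GPX5 and GPX6 had at most 1 count, ALOX15 at most 3, NOX1 at most 4, CYBB at most 6, and NOX4 and NOX5 at most 7.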
